A study of Arabidopsis thaliana with 6 samples.

Results

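Seedlings of the Arabidopsis thaliana mutant mp-B4149 were compared with seedlings that carry a steroid-inducible bdl repressor, both treated with dexamethasone (DEX) and then with auxin. The comparison uses 4 of the series' 6 arrays, 2 for each line, chosen by the source labels of the samples. The mp seedlings were of the mp-B4149 line, and the other seedlings carried pRPS5A-Myc-GR-bdl, which is a Myc-tagged fusion of the glucocorticoid receptor's hormone-binding part to bdl behind the RPS5A promoter. All seedlings had grown for 9 days on half-strength Murashige-Skoog medium before they were moved to liquid culture. Both lines received 10 µM DEX for 1 h and then 50 µM indole-3-acetic acid (IAA, the natural auxin) for 1 h more. A further group of 2 arrays came from GR-bdl seedlings that received 50 µM IAA without DEX, and its levels are given beside the others. Each array is 1 culture of whole seedlings per the design text, so the p-values measure the spread between cultures.

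MONOPTEROS (MP) is an auxin response factor, a transcription factor that activates genes with auxin response elements when auxin is present. BODENLOS (BDL) is an Aux/IAA protein that binds MP and keeps it inactive until auxin triggers BDL's degradation. The bdl form resists that degradation, and its fusion to the glucocorticoid receptor keeps it out of the nucleus until DEX is given. Seedlings without MP are known to lack the embryonic root and to form few veins. The comparison therefore sets a mutant that has lacked MP since the embryo beside seedlings in which a stabilised repressor was released for a short time.

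Several limits come with these lines. The RPS5A promoter is known for activity in dividing cells, so the repressor is not made equally in all cells. No source used here names the accession that either line descends from, and an effect of mp, of the transgene and of the lines' backgrounds cannot be told apart. The titles of the mp arrays name IAA only, whereas their source labels and the design text give DEX as well. The treatment protocol of the GR-bdl arrays called uninduced here is worded as for the others and includes DEX, whereas their titles, source labels and the design text give IAA alone, which was followed. The probe sets of BDL, ATHB8, MP, TMO7, TMO6, TMO5 and TMO3 are not analysed here, so the genotype labels were not checked on the genes themselves. In arrays of whole seedlings, fewer cells of a type and less RNA per cell cannot be told apart.

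The values are gcRMA intensities on the log2 scale, on which a difference of 1 is a 2-fold ratio. A gene is called when its adjusted p is under 0.05 in limma's moderated test, and each difference is mp minus DEX-treated GR-bdl. Levels under 4 are treated as near the low end of the scale, where 44.0% of the probe sets lay in mp and 43.2% in DEX-treated GR-bdl. Between the 2 arrays of each group the SD had a median of 0.10 in mp and 0.11 in DEX-treated GR-bdl. Differences in level between genes are not read, since probe sets differ in brightness.

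The lines differed across a large part of the measured genes. Of 22746 probe sets, 5031 were called higher and 4083 lower in mp, which is 40.1% of those tested. Among the 13350 genes with a probe set of their own, 2712 were called higher (20.3%) and 2187 lower (16.4%), or 36.7% in either direction. The 4 arrays did not overlap between the lines in 65.8% of these genes. With a difference of at least 1 as well, 901 genes were called higher (6.75%) and 925 lower (6.93%), or 13.7% together. Over all probe sets the same rule called 1735 in each direction (7.63% each). Counts of gene groups are read against these shares.

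Differences past 3 and past 5 were more often falls than rises in mp. Of the called genes, 182 were lower by 3 or more and 98 were higher by 3 or more. By 5 or more, 60 genes were lower and 15 were higher. A mean of at least 8 in DEX-treated GR-bdl against one under 4 in mp was found for 58 genes, and the reverse for 16 genes. The median difference of all probe sets was 0.07. When the arrays were instead centred on the mean of their 18 hybridization controls, that median became -0.20. The calls were then 29.7% on the higher side in place of 55.2%. These 18 controls were higher in mp by a median of 0.245. The 24 poly-A controls were higher in mp by a median of 0.187. The 3′ minus 5′ difference of control genes is a sign of RNA integrity. For ubiquitin it was 1.14 and 0.86 on the mp arrays and 0.53 and 0.68 on the DEX-treated GR-bdl arrays. For actin it was 2.54 and 2.48 in mp against 2.66 and 2.34, overlapping. For GAPDH it was -0.67 and -0.82 in mp against -0.62 and -0.63. The controls thus did not share 1 direction, and the part of RNA integrity in the results was not tested.

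**Figure D1:**
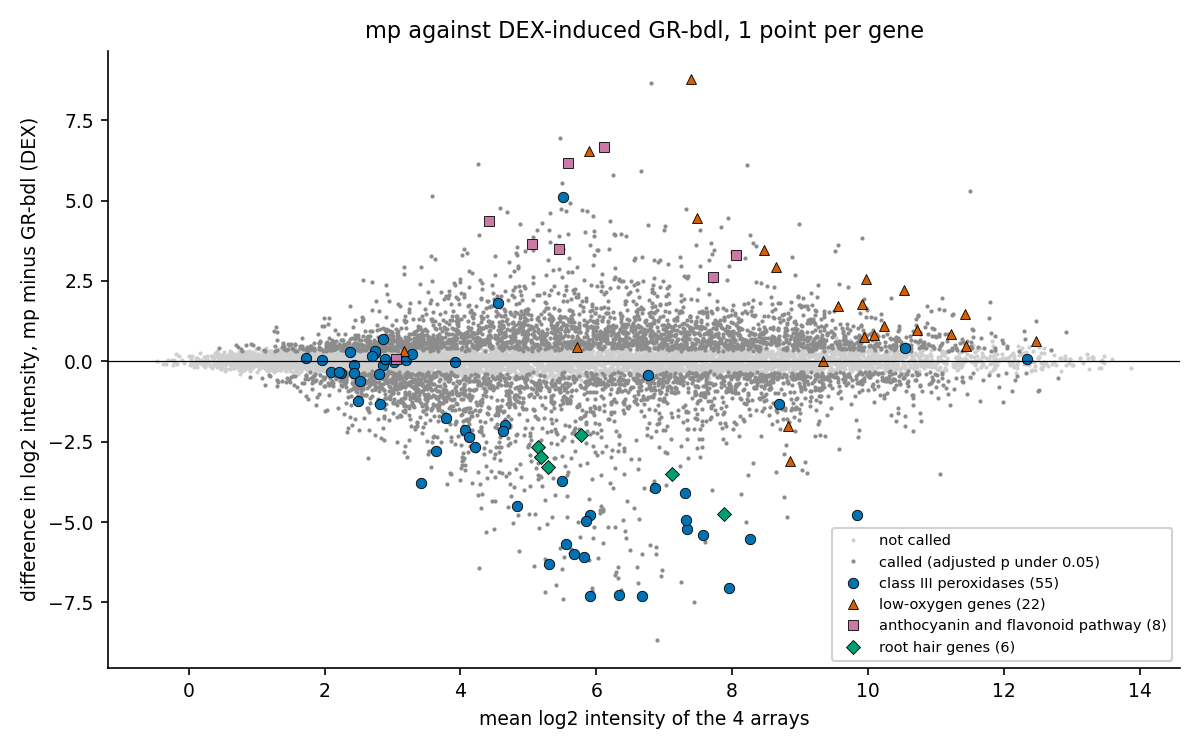
Each point is 1 of the 13350 genes, with the mean log2 intensity of the 4 arrays on the horizontal axis and the difference, mp minus DEX-treated GR-bdl, on the vertical axis; grey shades separate called from uncalled genes. Class III peroxidases and root hair genes reach far below 0, while anthocyanin and flavonoid genes and many low-oxygen genes lie above it.

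Most of the Aux/IAA repressors measured here were higher in mp than in DEX-treated GR-bdl. Aux/IAA genes encode the family to which BDL belongs, and many are themselves switched on by auxin within minutes. Of 7 Aux/IAA genes with a probe set of their own, 5 were called higher and 0 lower, against the 20.3% of all genes called higher. The median difference of the 7 was 1.82. Other members of the family were not examined. Both uncalled members, IAA31 and IAA33, lay near the low end in all groups.

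IAA29, a repressor that responds strongly to auxin, had levels of 9.25 and 8.83 on the mp arrays and 4.94 and 4.98 on the DEX-treated GR-bdl arrays. The difference of 4.08 (SE 0.15, adjusted p = 2.19e-07) is a 16.9-fold ratio. In GR-bdl without DEX, IAA29 read 9.18 and 9.21, so its mp level lay with the uninduced seedlings and only the DEX-treated pair was low. IAA30 showed the same order at lower levels, with 4.37 and 4.55 in mp, 2.68 and 2.60 with DEX and 4.53 and 4.56 without, and its difference was 1.82 (adjusted p = 5.62e-06). IAA34 and IAA20 had another order, in which mp stood above both GR-bdl groups. IAA34 read 8.06 and 7.73 in mp, 3.28 and 3.13 with DEX and 3.64 and 3.71 without DEX, a difference of 4.69 (adjusted p = 7.99e-08). IAA20, which lacks the motif for auxin-driven degradation, read 6.23 and 6.07 in mp, 3.08 and 2.69 with DEX and 3.35 and 3.24 without, a difference of 3.27 (adjusted p = 8.63e-07). IAA18 was higher by 0.60 only (adjusted p = 0.0387). Its call was lost when the 4 arrays were fitted alone (adjusted p = 0.0546). It was also lost with centring on the hybridization controls (adjusted p = 0.148) and with 16 added to the intensities (adjusted p = 0.107). Without the second DEX-treated GR-bdl array its difference was 0.33, and without the first mp array 0.40.

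GH3 enzymes join auxin and related hormones to amino acids and so lower the free hormone. Of 11 measured GH3 genes, 5 were called higher in mp and 0 lower, against 20.3% and 16.4% of all genes. Of the 11, 6 were added to the first version of the list with earlier results known. The 6 uncalled GH3 genes were near the low end in both lines. With centring on the hybridization controls 4 were higher and 2 lower. GH3.3 read 12.06 and 12.09 in mp, 10.15 and 10.03 in DEX-treated and 12.18 and 12.24 in uninduced GR-bdl, a difference between the treated lines of 1.98 (SE 0.11, adjusted p = 2.45e-06). WES1, also named GH3.5, read 8.59 and 8.81 in mp, 6.71 and 7.81 with DEX and 9.67 and 9.68 without, so mp lay between the 2 GR-bdl groups, and the difference was 1.44 (adjusted p = 0.00501). The DEX-treated pair of WES1 was wider apart than its mp pair, and the lines did not overlap. GH3.17 stood well above both GR-bdl groups, at 7.49 and 7.31 in mp against 3.74 and 3.26 with DEX and 4.02 and 3.80 without, a difference of 3.90 (adjusted p = 7.46e-07). AT1G48660, placed in the family by its locus, was at 8.80 and 9.09 in mp and near the low end elsewhere, with 2.12 and 1.86 with DEX, a difference of 6.96 (adjusted p = 1.74e-08). GH3.1 read 3.31 and 3.17 in mp and 2.78 and 3.01 with DEX, near the low end, whereas uninduced GR-bdl read 5.47 and 5.66; its difference of 0.35 was not called (adjusted p = 0.0662). It passed when the arrays were centred on their medians (adjusted p = 0.0486).

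Early growth and root-branching genes did not share 1 direction. Of 8 other early auxin genes, 1 was called higher, 2 lower and 5 were not called, close to the 36.7% of all genes called. HAT2, a homeodomain-zipper factor that is quickly induced by auxin, read 11.39 and 11.24 in mp, 9.27 and 9.44 with DEX and 11.45 and 11.47 without, a difference of 1.96 (adjusted p = 4.10e-06). LBD29, a factor of lateral root initiation that acts below auxin response factors, was lowest in mp at 2.24 and 1.77, against 3.60 and 3.91 with DEX and 4.68 and 5.37 without. Its difference of -1.75 was called (adjusted p = 6.02e-04), but all mp and DEX-treated levels lay under 4, and the call was lost with 16 added to the intensities (adjusted p = 0.0608). LBD16, its close relative in the same process, read 3.86 and 4.56 in mp and 4.12 and 4.08 with DEX, overlapping, while uninduced GR-bdl was at 5.87 and 5.49. XTH19, a xyloglucan-modifying wall enzyme, was 8.18 and 8.21 in mp and 9.21 and 9.14 with DEX, a difference of -0.98 (adjusted p = 1.34e-04). The expansin EXPA8 read 5.54 and 5.15 in mp and 5.57 and 5.65 with DEX, not called (adjusted p = 0.192), and 7.69 and 7.71 without DEX. It passed as lower with centring on the hybridization controls (adjusted p = 0.0121). ARL, an organ-size regulator, and BIM1, a partner of brassinosteroid factors, were not called (adjusted p = 0.286 and 0.967).

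Small auxin-up RNA genes and the BIG GRAIN-like genes also went both ways. SAUR10, the locus AT2G18010, read 5.28 and 4.96 in mp, 2.66 and 2.71 with DEX and 7.06 and 7.39 without, so mp stood between the 2 GR-bdl groups, and the difference was 2.44 (adjusted p = 5.87e-06). SAUR57, the locus AT3G53250, was the opposite case at 2.66 and 2.58 in mp, 5.02 and 5.20 with DEX and 3.16 and 3.19 without, a difference of -2.49 (adjusted p = 9.04e-07). Only the DEX-treated pair was raised for this gene. Of the 4 BIG GRAIN-like genes, 3 were called higher and 1 lower, and the call of AT1G54200 was lost without the second mp array (adjusted p = 0.0583). AT1G69160 read 5.96 and 5.82 in mp against 3.35 and 3.99 with DEX and 6.00 and 6.00 without (difference 2.22, adjusted p = 3.82e-05). AT5G12050 read 8.12 and 7.87 in mp, 7.10 and 6.79 with DEX and 9.50 and 9.54 without (difference 1.06, adjusted p = 5.20e-04). AT3G42800 was the member called lower, at 4.62 and 4.38 in mp, 5.51 and 5.10 with DEX and 7.52 and 7.51 without (difference -0.81, adjusted p = 0.00377). All 4 BIG GRAIN-like genes were added with earlier results known.

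**Figure D2:**
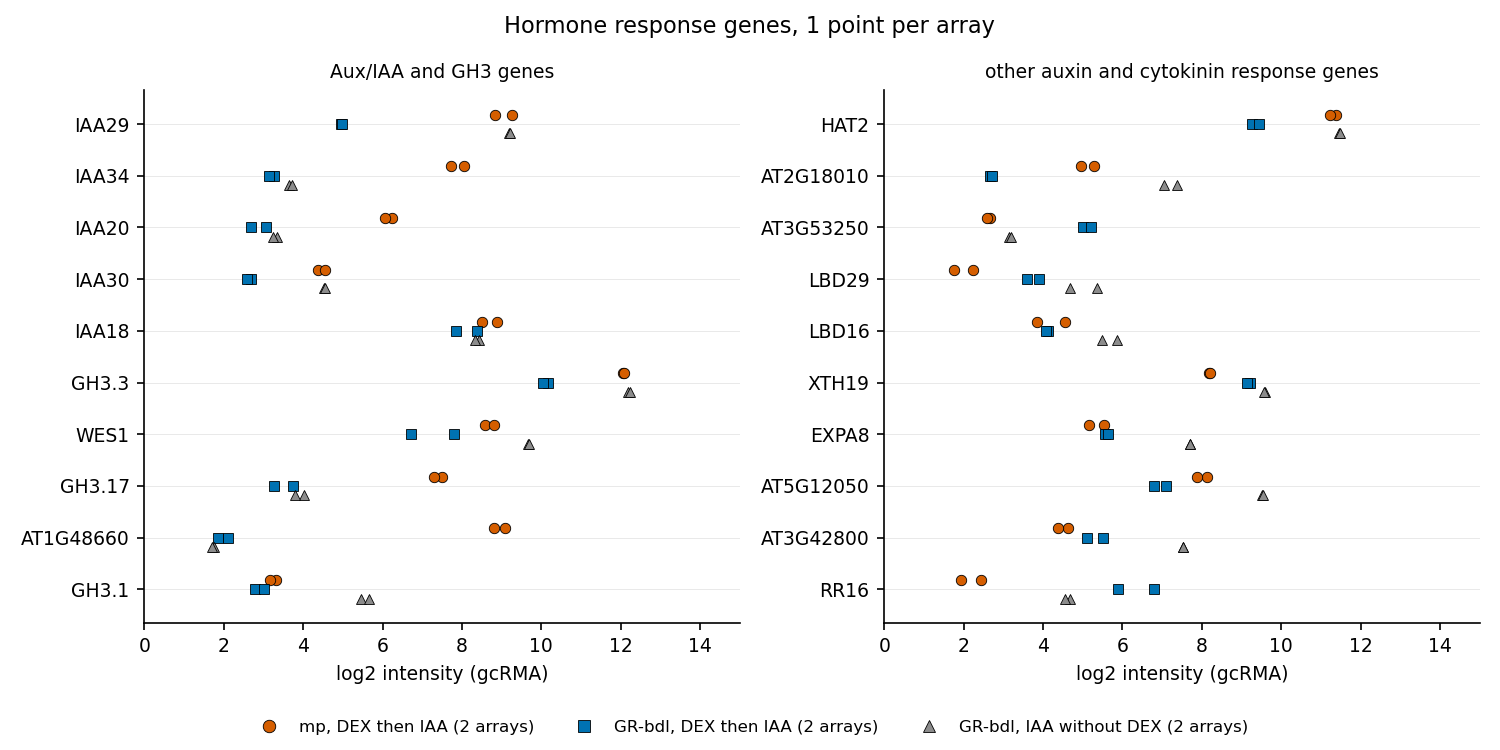
Log2 intensity on each array is shown for 20 hormone response genes, with circles for mp, squares for DEX-treated GR-bdl and triangles for uninduced GR-bdl. For IAA29, IAA30, GH3.3 and HAT2 the mp circles lie beside the triangles; for IAA34, IAA20, GH3.17 and AT1G48660 they lie above both GR-bdl groups; for RR16 they lie below both.

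Genes of other hormones showed large single differences. RR16, a type-A response regulator that damps cytokinin signalling, was 2.44 and 1.94 in mp, 6.79 and 5.89 with DEX and 4.68 and 4.54 without. The difference of -4.16 (SE 0.28, adjusted p = 7.98e-06) was called with mp near the low end, and the mp arrays lay below every GR-bdl array. ARR15, the other type-A gene measured, was near the low end and not called (adjusted p = 0.0718). It passed as lower with centring on the hybridization controls (adjusted p = 0.00564). BRH1, a RING-finger gene named for its response to brassinosteroid, read 10.93 and 10.81 in mp, 8.45 and 8.66 with DEX and 11.02 and 10.92 without, a difference of 2.32 (adjusted p = 2.01e-06). BRL1, the other brassinosteroid gene measured, was near the low end and called lower (difference -0.66). The gibberellin receptors diverged. GID1A read 9.54 and 9.50 in mp and 8.48 and 8.14 with DEX (difference 1.21, adjusted p = 1.78e-04), whereas GID1B read 4.77 and 5.05 and 6.51 and 7.08 (difference -1.88, adjusted p = 8.87e-05). GID1C was not called (adjusted p = 0.153), although it passed as lower with centring on the hybridization controls (adjusted p = 0.0165). EIN3, the main transcription factor of ethylene signalling, was lower at 9.71 and 9.64 against 10.56 and 10.34 (difference -0.77, adjusted p = 0.00104).

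Root hair genes were lower in mp without exception among the 6 measured. Root hairs are tip-growing cells whose wall is loosened by expansins and built with extensins, and mp seedlings are known to lack the primary root. The 6 genes had a median difference of -3.13 and all were called lower, against the 16.4% of all genes called lower. Of the 6, 4 were added to the first version of the list with earlier results known. EXPA7, an expansin of root hair cells, read 3.54 and 3.76 in mp, 6.65 and 7.23 with DEX and 7.22 and 7.68 without (difference -3.29, adjusted p = 7.60e-06). EXPA18, its partner in the same cells, read 3.80 and 3.60 in mp and 6.22 and 7.13 with DEX (difference -2.98, adjusted p = 3.45e-05). HRGP1, a hydroxyproline-rich glycoprotein, fell to 5.51 and 5.50 from 9.87 and 10.63 (difference -4.74, adjusted p = 8.19e-07). For all 3 genes the mp arrays lay below every GR-bdl array. HRGP1 and some extensin loci are read by probe sets whose names mark probes shared with similar genes, so the signal may be split between relatives.

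Class III peroxidases, which oxidise phenolics and cross-link the wall, were mostly lower in mp. Of 55 measured loci, 31 were called lower and 5 higher, with a median difference of -1.33. Lower by at least 1 were 30 of them, against 6.93% of all genes, and 17 of the 19 uncalled loci were near the low end in both lines. PRX72, the locus AT5G66390, read 2.49 and 1.82 in mp, 8.37 and 8.52 with DEX and 8.24 and 8.49 without (difference -6.29, adjusted p = 1.39e-07). PRX71, the locus AT5G64120, read 4.95 and 6.05 in mp and 11.02 and 11.03 with DEX (difference -5.52, adjusted p = 2.02e-06). Prx37 read 3.13 and 3.60 in mp and 8.18 and 8.50 with DEX (difference -4.97, adjusted p = 2.04e-07). The largest falls in the group were at AT4G26010, AT3G01190, AT4G30170 and AT2G37130, with differences of -7.30, -7.29, -7.27 and -7.07. In each of these 4 loci the mp arrays read under 5 and the GR-bdl arrays over 9. AT4G31760 went the other way, at 7.83 and 8.30 in mp against 2.97 and 2.96 with DEX (difference 5.10, adjusted p = 9.99e-08). PRX52 and PRXR1 were not called (adjusted p = 0.43 and 0.564). The count called higher was 2 in place of 5 with centring on the hybridization controls, while 37 were then lower, and it was 3 without the second DEX-treated GR-bdl array. Most peroxidase loci carry no symbol in the annotation used, so their place in the family rests on their locus numbers. Of the 55, 49 were added to the first version of the list with earlier results known. The root hair genes fell on the same arrays, and their part in this result was not tested.

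Further wall families had more members called lower than higher. Of all genes, 16.4% were called lower and 20.3% higher. Of 14 extensins and proline-rich glycoproteins, 9 were called lower and 0 higher (median -1.51). The 14 include 4 of the root hair genes above, and 5 of the other 10 were called lower. Of the 14, 12 were added to the first version of the list with earlier results known. Of 15 dirigent proteins, which guide the coupling of lignin and lignan precursors, 8 were called lower and 1 higher (median -0.44). All 15 were added with earlier results known. The largest fall among them was at AT4G13580, from 8.49 and 9.21 to 3.98 and 3.40 (difference -5.16, adjusted p = 1.58e-06). Of 10 xyloglucan endotransglucosylases, 7 were called lower and 1 higher (median -0.83). XTH33 read 6.03 and 6.21 in mp and 7.85 and 7.40 with DEX (difference -1.51, adjusted p = 1.27e-04), whereas XTH32 was higher, at 9.87 and 9.84 against 8.47 and 7.87 (difference 1.69, adjusted p = 4.23e-04).

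The 19 expansins were split, with 6 called lower and 4 higher, against 16.4% and 20.3% of all genes. EXPA9 read 3.79 and 3.95 in mp and 6.75 and 7.02 with DEX (difference -3.01, adjusted p = 6.60e-06), and EXLA1, of the expansin-like branch, 6.04 and 6.06 and 9.12 and 8.90 (difference -2.96, adjusted p = 4.03e-07). EXPA20 was higher at 6.34 and 7.24 against 3.38 and 3.29 (difference 3.46, adjusted p = 1.36e-05), as was EXPA15 at 7.11 and 7.22 against 4.88 and 5.06 (difference 2.19, adjusted p = 1.19e-05). EXPA4 was raised to 6.88 and 7.06 from 5.43 and 6.08 (difference 1.21, adjusted p = 0.00236), and uninduced GR-bdl read 6.85 and 7.21, beside mp. With centring on the hybridization controls, 9 expansins were lower in place of 6. The TRICHOME BIREFRINGENCE-LIKE proteins, many of which acetylate wall sugars, were also split, with 9 of 22 lower and 5 higher. All 22 were added with earlier results known. Leaving out 1 array at a time moved the lower count of this family between 5 and 11. TBL38 read 2.83 and 2.60 in mp and 5.39 and 5.65 with DEX (difference -2.81, adjusted p = 1.85e-06), and TBL26 5.55 and 5.11 and 3.60 and 3.33 (difference 1.86, adjusted p = 4.32e-05). HCT, an enzyme of lignin monomer synthesis, was lower at 7.59 and 8.07 against 9.78 and 9.93 (difference -2.02, adjusted p = 2.46e-05). The other 2 of the 3 lignin genes measured were near the low end and not called. GUT2, a gene of secondary-wall xylan synthesis, read 4.09 and 4.28 against 5.24 and 5.16 (difference -1.01, adjusted p = 2.00e-04). The other of the 2 xylem and wood genes measured was near the low end and not called.

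Of 6 root pattern and meristem genes measured, 3 were called lower and 1 higher, against 16.4% and 20.3% of all genes. UPB1, a bHLH factor that controls reactive oxygen and peroxidase genes at the root's transition zone, read 1.28 and 1.01 in mp, 3.98 and 4.31 with DEX and 4.09 and 4.24 without. Its difference was -3.00 (adjusted p = 1.63e-06), with mp near the low end. SCL23, the locus AT5G41920 and a relative of the root patterning factor SCARECROW, read 4.56 and 4.50 in mp and 5.57 and 5.71 with DEX (difference -1.11, adjusted p = 8.36e-05). JKD, a zinc-finger factor of the ground tissue, had a difference of -0.72 (adjusted p = 0.0136), which was lost without the second DEX-treated GR-bdl array (adjusted p = 0.085). CR4, a receptor kinase of the list, was the member called higher, at 3.58 and 3.20 against 2.86 and 2.89 and near the low end (difference 0.52, adjusted p = 0.0187). Its call was lost without either DEX-treated GR-bdl array or the first mp array (adjusted p = 0.0665, 0.0566 and 0.102). BBM and PHV were not called (adjusted p = 0.394 and 0.324), but both passed as lower with centring on the hybridization controls, and PHV also without the first DEX-treated GR-bdl array (adjusted p = 0.0361). SIM, an inhibitor of cell division that promotes endoreduplication, was lower at 5.47 and 4.93 against 7.53 and 7.23 (difference -2.18, adjusted p = 5.85e-05). PRL, which encodes the replication protein MCM7, was not called (adjusted p = 0.141). PYK10, a root-abundant beta-glucosidase of ER bodies, read 13.34 and 13.25 in mp and 13.24 and 13.15 with DEX and was not called (adjusted p = 0.517).

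The count of photosynthesis genes called depended on the processing. Of 12 nuclear photosynthesis genes, 1 was called higher and 1 lower, with a median difference of -0.02, against the 36.7% of all genes called in either direction. With 16 added to the intensities 3 were higher and 3 lower. The rubisco activase gene RCA read 13.35 and 13.26 in mp and 13.54 and 13.48 with DEX and was not called (adjusted p = 0.17). It passed as lower with eBayes' trend, with 16 added and with centring on the hybridization controls (adjusted p = 0.0027, 0.0256 and 0.0139). PRK, a Calvin cycle kinase, read 12.60 and 12.52 and 12.54 and 12.37, overlapping. With centring on the hybridization controls, 4 of the 12 were lower in place of 1. The 1 called lower was the photosystem I subunit PSAN, with a difference of -0.36. Its call was lost when the 4 arrays were fitted alone (adjusted p = 0.0823) and with centring on array medians (adjusted p = 0.0586). Without the first mp array its difference was -0.25. LHCB4.3, a minor antenna protein of photosystem II, was higher at 9.23 and 9.06 against 7.53 and 7.13 (difference 1.81, adjusted p = 2.92e-05). PORB, which makes chlorophyllide in the light, read 13.51 and 13.24 against 12.63 and 12.31 (difference 0.91, adjusted p = 0.00145). It was the 1 called of 5 chlorophyll and carotenoid synthesis genes measured, and the other 4 were not called.

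Leaf polarity and stomatal genes included clear increases. YAB5, a YABBY factor of the lower leaf side, read 7.77 and 8.03 in mp, 5.69 and 5.81 with DEX and 6.22 and 6.17 without (difference 2.15, adjusted p = 3.67e-06). YAB3, of the same family, read 8.75 and 8.76 and 7.72 and 8.11 (difference 0.84, adjusted p = 0.00181). STOMAGEN, a mesophyll peptide that promotes stomata, read 7.24 and 8.25 in mp and 4.19 and 4.39 with DEX (difference 3.46, adjusted p = 2.35e-05). SPCH, the factor that starts the stomatal lineage, was higher at 5.52 and 5.42 against 4.42 and 4.30 (difference 1.11, adjusted p = 1.38e-04), while MUTE, which acts after it, was near the low end and not called (adjusted p = 0.806). CLV3, the stem cell peptide of the shoot apex, was near the low end and not called (adjusted p = 0.136). The 1 seed and embryo gene and the 2 pollen genes measured were near the low end in both lines. The seed gene PAP85 read 2.42 and 2.29 in mp and 2.15 and 2.18 with DEX, and the pollen gene INP1 2.74 and 2.85 and 2.65 and 2.71. So few genes do not cover other material as a whole.

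The count of plastid-encoded genes depended on single arrays. Of 69, 16 were called higher and 1 lower, near the 20.3% of all genes called higher, and the median difference was 0.44. The mean level over the 69 genes was 10.85 and 10.71 on the mp arrays and 10.66 and 9.99 on the DEX-treated GR-bdl arrays, so the second GR-bdl array stood apart. Without the first DEX-treated GR-bdl array 51 genes were higher, and without the second, or without either mp array, 6 were. The photosystem II gene psbN read 9.22 and 8.90 in mp and 7.88 and 6.70 with DEX (difference 1.77, adjusted p = 0.00264), and psbA, which encodes the D1 protein, was not called (adjusted p = 0.709).

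**Figure D3:**
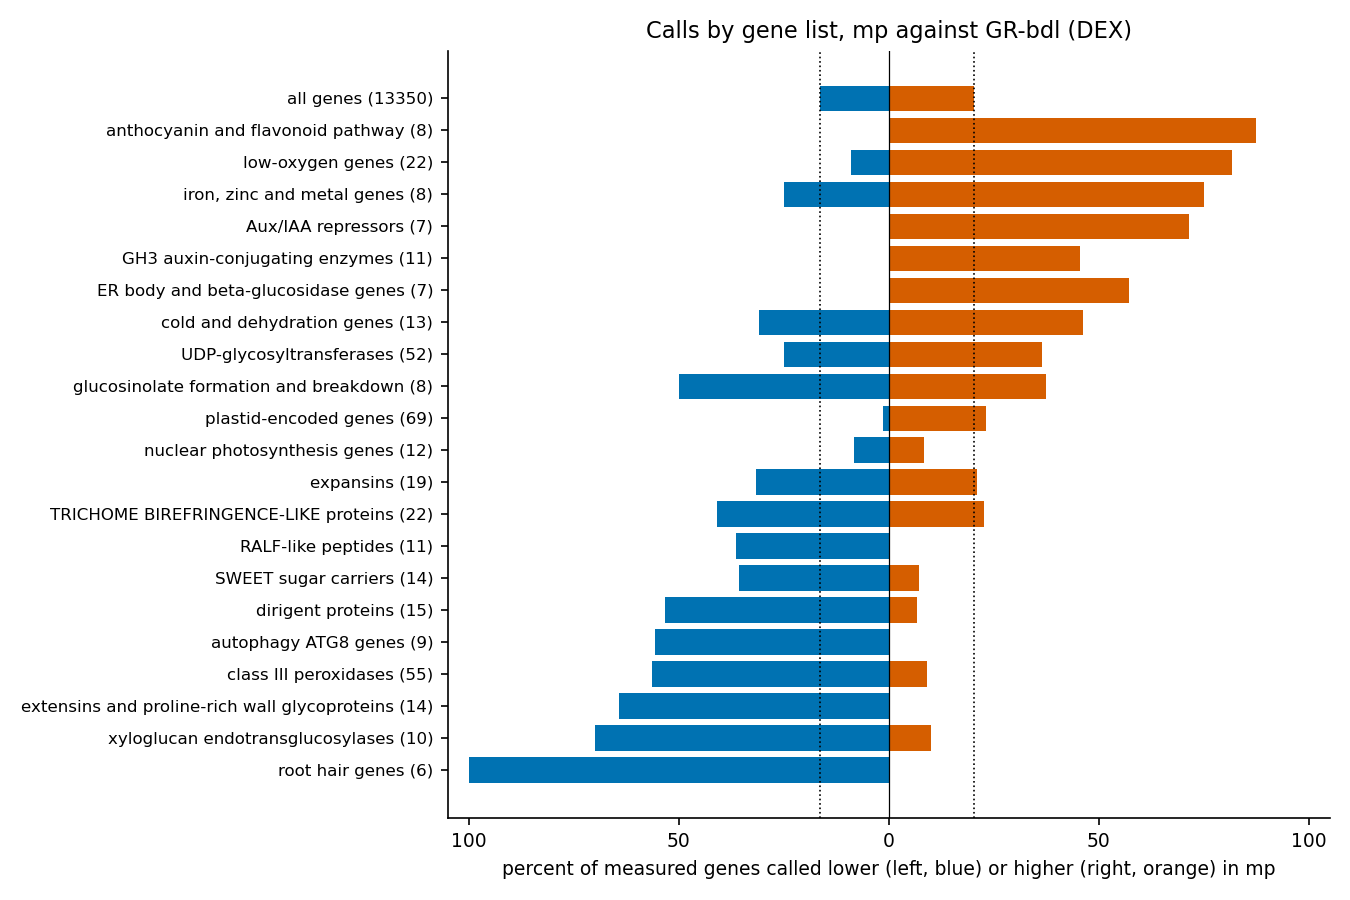
Bars give the percent of each list's measured genes (number in brackets) that were called higher (right) or lower (left) in mp; the dotted lines mark the 20.3% and 16.4% of all genes. All 6 root hair genes are on the lower side and 7 of 8 anthocyanin and flavonoid genes on the higher side, while nuclear photosynthesis genes lie inside both lines.

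Most measured genes of the anthocyanin and flavonoid pathway were far higher in mp. Anthocyanins are the red and purple flavonoid pigments, made late in the flavonoid pathway and decorated with sugars and acids. Of 8 measured genes, 7 were called higher by at least 1, against 6.75% of all genes, with a median difference of 3.57. Of the 8, 3 were added to the first version of the list with earlier results known. DFR, the reductase at the entry to anthocyanins, read 9.22 and 9.68 in mp, 2.90 and 2.68 with DEX and 2.81 and 2.70 without. Its difference of 6.67 (SE 0.16, adjusted p = 3.38e-08) lifted it from near the low end. The sugar-adding enzymes UGT78D2 and UGT78D1 read 9.60 and 9.80 and 7.22 and 7.18 in mp against 6.39 and 6.41 and 3.82 and 3.61 with DEX. Their differences were 3.30 and 3.49 (adjusted p = 2.24e-07 and 2.44e-07). UF3GT, which adds a further sugar, read 6.48 and 7.28 in mp and 3.19 and 3.27 with DEX (difference 3.65, adjusted p = 5.65e-06). AT5MAT, a malonyltransferase, was 5.85 and 7.35 in mp and 2.25 and 2.21 with DEX (difference 4.37, adjusted p = 4.42e-05), and its mp pair was the widest of the group. CHIL, which supports flux into flavonoids, read 8.94 and 9.14 in mp and 6.32 and 6.49 with DEX (difference 2.63, adjusted p = 1.19e-06). AT4G14090, placed in the pathway by its locus, had a difference of 6.18 (adjusted p = 3.68e-08). BAN, which leads from anthocyanidins to seed-coat tannins, was near the low end and not called (adjusted p = 0.721). For all 7 called genes both uninduced GR-bdl arrays lay below every mp array.

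The UDP-glycosyltransferase family as a whole went both ways. The 52 measured members include UGT78D2, UGT78D1 and UF3GT above. Of the 52, 19 were called higher and 13 lower, against 20.3% and 16.4% of all genes. With centring on the hybridization controls the split turned to 14 higher and 17 lower. UGT76B1, which acts on a branched acid and on salicylic acid in defence, fell to 3.30 and 3.81 from 7.19 and 7.17 (difference -3.63, adjusted p = 2.88e-06). GT72B1 fell to 3.45 and 3.45 from 6.79 and 6.76 (difference -3.32, adjusted p = 7.63e-07).

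Low-oxygen genes were higher in mp in most cases. These genes are known to rise when oxygen runs short, and they include fermentation enzymes and small proteins of mostly unknown function. Of 22 measured, 18 were called higher and 2 lower (median 1.05), and 11 were higher by at least 1. Of all genes, 20.3% were called higher, 16.4% lower and 6.75% higher by at least 1. CML38, a calmodulin-like protein of low-oxygen granules, read 10.12 and 10.10 in mp, 6.92 and 7.43 with DEX and 7.96 and 7.46 without (difference 2.93, adjusted p = 1.12e-05). PDC2, a pyruvate decarboxylase of fermentation, read 11.65 and 11.64 and 10.75 and 10.87 (difference 0.84, adjusted p = 8.27e-04). HRA1, the locus AT3G10040 and a damper of the response, read 10.33 and 10.31 and 9.43 and 9.69 (difference 0.76, adjusted p = 0.00251). AT2G47780 had the highest increase of the 13350 genes, from 3.21 and 2.80 with DEX and 3.32 and 3.48 without to 11.75 and 11.84 in mp (difference 8.79, adjusted p = 1.02e-08). AT3G29970 rose by 6.53 and AT5G42200 by 4.47 (adjusted p = 1.62e-08 and 8.70e-07). The 2 members that fell were AT4G39675, at 6.75 and 7.87 in mp against 10.34 and 10.47 with DEX, and AT1G19530, at 8.02 and 7.62 against 9.94 and 9.73. Their differences were -3.10 and -2.01 (adjusted p = 1.39e-04 and 4.44e-05). Both lines were shaken in liquid medium during the treatments. Most loci of this list were placed by locus number, and 20 of the 22 were added to its first version with earlier results known. The counts describe these members and do not test the response.

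Cold and dehydration genes were mixed. Of 13, 6 were called higher and 4 lower, against 20.3% and 16.4% of all genes. COR15A and COR15B, chloroplast proteins that protect membranes in freezing, rose to 7.47 and 7.05 and to 10.04 and 9.80 in mp from 3.66 and 3.89 and from 5.62 and 5.86 with DEX. The differences were 3.48 and 4.18 (adjusted p = 1.79e-06 and 1.21e-07). The dehydrin LTI30 fell to 7.35 and 7.36 from 10.67 and 10.78 (difference -3.37, adjusted p = 1.72e-07), and the dehydrin COR47 to 11.81 and 11.54 from 12.61 and 12.55 (difference -0.91, adjusted p = 5.91e-04). LEA27, the locus AT2G46140, fell to 3.65 and 4.17 from 6.82 and 7.51 (difference -3.25, adjusted p = 1.66e-05). XERICO, a RING protein linked to abscisic acid levels, fell to 6.88 and 6.68 from 8.55 and 8.60 (difference -1.79, adjusted p = 7.90e-06).

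Metal genes included large differences in both directions. Of 8 measured, 6 were called higher and 2 lower (median 1.36), against 20.3% and 16.4% of all genes. Of the 8, 5 were added to the first version of the list with earlier results known. CCS, the copper chaperone of superoxide dismutase, read 10.13 and 10.22 in mp, 5.63 and 5.77 with DEX and 6.00 and 5.73 without (difference 4.47, adjusted p = 7.99e-08). PYE, a bHLH factor of the iron deficiency response, read 8.25 and 8.59 and 5.16 and 5.39 (difference 3.14, adjusted p = 1.38e-06), and BHLH101, another iron factor, 3.27 and 3.01 and 2.08 and 2.31 (difference 0.94, adjusted p = 8.84e-04). F6'H1, the locus AT3G13610 and the enzyme that opens the path to root coumarins, fell to 2.82 and 3.14 in mp from 9.04 and 9.13 with DEX (difference -6.11, adjusted p = 2.23e-08). The 2 iron factors and the coumarin enzyme thus lay on opposite sides, and BHLH101 was near the low end in both lines. ZIP9, a zinc transporter near the low end, was called lower (adjusted p = 0.0353), and the call was lost with 16 added to the intensities (adjusted p = 0.103).

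Glucosinolate genes were split by member. Glucosinolates are sulphur-rich defence compounds whose side chains are built from methionine or tryptophan. Of 8, 4 were called lower and 3 higher, against 16.4% and 20.3% of all genes. Of the 8, 2 were added to the first version of the list with earlier results known, AT2G25450 among them. BCAT4, which starts the chain elongation of methionine, fell to 3.37 and 3.12 in mp from 8.07 and 8.39 with DEX (difference -4.98, adjusted p = 1.15e-07). AT2G25450, placed in this list by its locus, had the largest fall of the 13350 genes, from 11.28 and 11.17 with DEX and 10.98 and 11.02 without to 2.54 and 2.57 in mp (difference -8.66, SE 0.11, adjusted p = 9.94e-09). AOP1 and AOP3, which belong to the side-chain oxygenases, read 5.73 and 5.74 and 4.55 and 4.55 in mp against 4.27 and 4.26 and 2.87 and 3.14 with DEX. Their differences were 1.47 and 1.55 (adjusted p = 2.22e-04 and 1.81e-04). The transporters GTR1 and GTR2 moved in opposite directions. GTR1 read 7.77 and 7.90 in mp and 5.94 and 6.15 with DEX (difference 1.80, adjusted p = 8.64e-06), and GTR2 7.82 and 7.94 and 9.67 and 9.22 (difference -1.56, adjusted p = 8.79e-05). AOP and side-chain genes are known to vary between natural accessions, and no source used here names the accession behind either line.

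**Figure D4:**
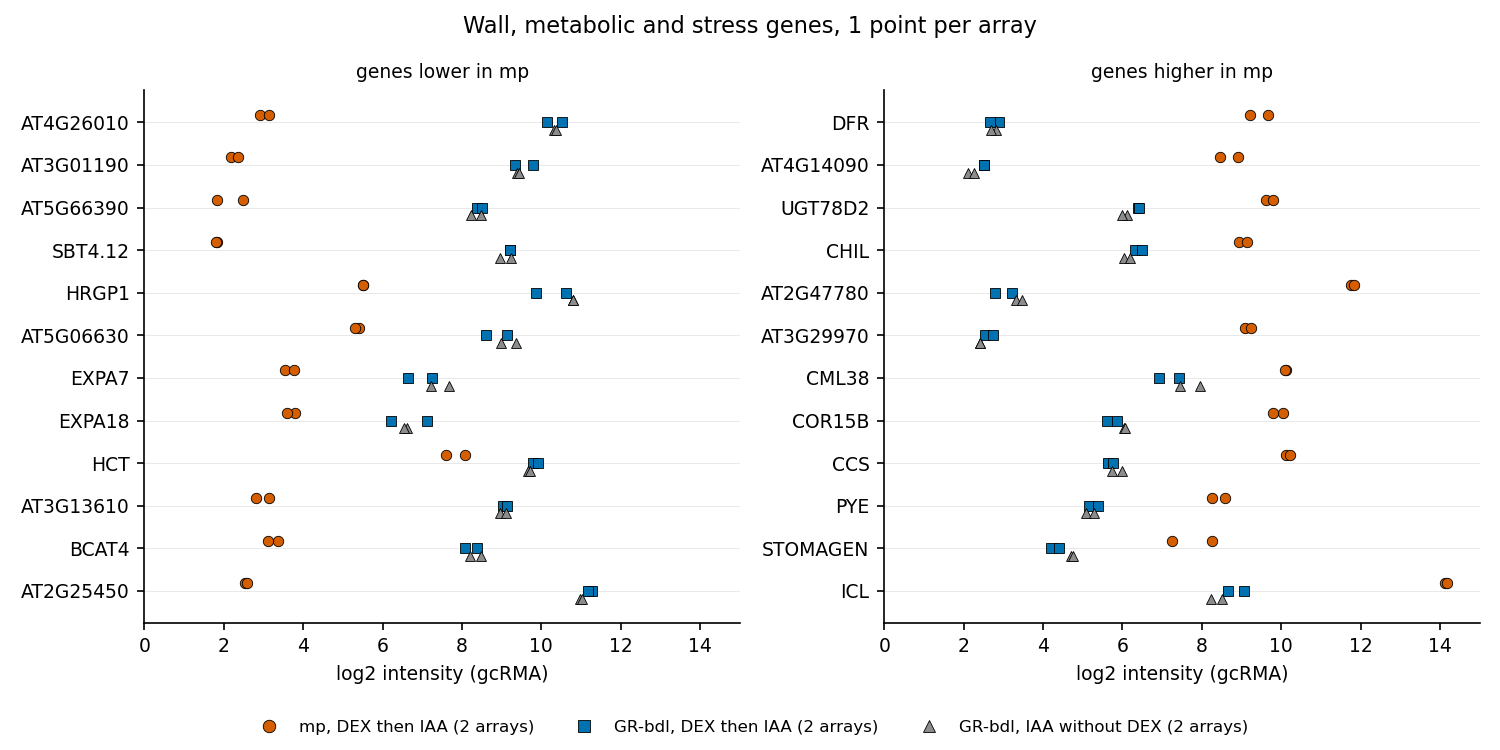
Log2 intensity on each array is shown for 12 genes lower in mp (left) and 12 higher in mp (right), with circles for mp, squares for DEX-treated and triangles for uninduced GR-bdl. In these 24 genes the squares and triangles lie nearer to each other than to the circles.

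Families of recycling, sugar transport and peptide signals were called in part. Of all genes, 16.4% were called lower, 20.3% higher and 36.7% in either direction. Of 9 ATG8 genes, which encode the ubiquitin-like proteins that coat autophagosomes, 5 were called lower and 0 higher (median -0.66). ATG8B read 3.78 and 3.65 in mp and 5.89 and 5.59 with DEX (difference -2.03, adjusted p = 1.43e-05), and APG8A 6.66 and 6.51 and 8.55 and 8.22 (difference -1.79, adjusted p = 2.26e-05). ATG8F read 10.66 and 10.43 and 10.85 and 10.62, overlapping, and passed as lower only with centring on the hybridization controls (adjusted p = 0.0201). Of 14 SWEET sugar carriers, 5 were called lower and 1 higher (median 0.05). The vacuolar carriers SWEET16 and SWEET17 read 2.59 and 2.64 and 2.61 and 2.32 in mp against 5.52 and 5.39 and 5.15 and 4.77 with DEX. Their differences were -2.84 and -2.49 (adjusted p = 1.20e-06 and 6.00e-06). Of 11 RALF-like peptides, 4 were called lower and 0 higher, against 16.4% and 20.3% of all genes. The 4 were lower by at least 1, against 6.93% of all genes. The share called in either direction was near the 36.7% of all genes. With centring on the hybridization controls 6 of these peptides were lower. RALFL32 read 5.33 and 5.94 in mp and 7.87 and 8.08 with DEX (difference -2.34, adjusted p = 3.07e-05). RALFL34, a peptide of lateral root initiation, read 10.88 and 10.75 and 10.87 and 10.76, overlapping. Of 6 CLE peptides, another family of small signals, 2 were called higher and 0 lower, against 20.3% and 16.4% of all genes. In either direction this was also near the 36.7%. All ATG8, SWEET, RALF-like and CLE members were added with earlier results known. CLE41 read 6.45 and 6.11 and 5.71 and 5.87 (difference 0.48, adjusted p = 0.0281), a call that was lost without the first array of either line (adjusted p = 0.162 for mp and 0.119 for DEX-treated GR-bdl).

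Single genes of reserve metabolism and of vacuolar proteases had large increases. ICL, isocitrate lyase of the glyoxylate cycle that turns seed oil into sugar, read 14.12 and 14.19 in mp, 9.05 and 8.67 with DEX and 8.51 and 8.22 without (difference 5.29, adjusted p = 9.61e-08). APL3 and APL4, large subunits of the starch enzyme ADP-glucose pyrophosphorylase, read 8.11 and 8.07 and 5.64 and 5.71 in mp against 3.19 and 3.11 and 2.23 and 2.50 with DEX. Their differences were 4.94 and 3.30 (adjusted p = 4.06e-08 and 3.01e-07). BETA-VPE, a protease that processes vacuolar and storage proteins, read 8.12 and 8.31 in mp and 3.56 and 3.81 with DEX (difference 4.53, adjusted p = 1.05e-07). Of the 4 vacuolar processing enzymes 2 were called higher and 1 lower, against 20.3% and 16.4% of all genes. All 4 were added with earlier results known. DELTA-VPE read 3.29 and 3.37 and 2.59 and 2.40 (difference 0.83, adjusted p = 7.09e-04) and ALPHA-VPE 2.75 and 3.19 and 3.69 and 3.49 (difference -0.62, adjusted p = 0.0147), both near the low end. The call of ALPHA-VPE was lost without the first array of either line (adjusted p = 0.0804 for mp and 0.0773 for DEX-treated GR-bdl). GAMMA-VPE, a vegetative member, was not called (adjusted p = 0.491).

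Transcription factors and signalling genes also differed, among which SPT and PUB19, like APL3, APL4, OSM34, CR4, CLE41, TUB6, DELTA-VPE and ALPHA-VPE, were named after their values were seen. HYH, the bZIP homolog of the light factor HY5, read 7.07 and 6.96 in mp, 2.59 and 2.89 with DEX and 3.20 and 3.12 without (difference 4.27, adjusted p = 1.04e-07). SPT, a bHLH factor of carpels and seed dormancy, read 10.27 and 10.19 and 6.23 and 6.38 (difference 3.92, adjusted p = 1.05e-07). STZ, a zinc-finger repressor of stress responses also called ZAT10, read 7.50 and 7.90 in mp, 5.99 and 6.21 with DEX and 7.20 and 7.60 without (difference 1.60, adjusted p = 1.93e-04). PUB19, a U-box ubiquitin ligase of drought responses, rose to 7.78 and 8.37 from 2.96 and 3.10 (difference 5.04, adjusted p = 2.19e-07). bZIP44 fell to 5.66 and 5.56 from 7.86 and 7.92 (difference -2.28, adjusted p = 1.26e-06). AGL87, a MADS-box factor, fell to 2.20 and 2.51 from 5.63 and 5.70 (difference -3.31, adjusted p = 2.86e-06), while 34 of the 35 uncalled MADS genes of the 42 measured were near the low end in both lines.

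Defence and detoxification genes were lower in the larger cases. OSM34, an osmotin-like protein, fell to 2.91 and 2.99 in mp from 9.37 and 10.02 with DEX (difference -6.74, adjusted p = 9.94e-08). THI2.2, a thionin, fell to 5.93 and 5.78 from 8.87 and 8.86 (difference -3.01, adjusted p = 2.94e-07). GSTU22, a glutathione transferase, fell to 3.74 and 4.11 from 8.80 and 8.93 (difference -4.94, adjusted p = 1.48e-07), whereas GSTU18 rose to 7.06 and 7.26 from 5.08 and 5.05 (difference 2.10, adjusted p = 1.52e-05). Of the 14 defence genes listed, 6 were called lower and 2 higher, against 16.4% and 20.3% of all genes. Of 14 glutathione transferases 5 were lower and 3 higher, and 3 were lower with 16 added to the intensities. SBT4.12, a subtilisin-like protease, had 1 of the largest falls of the 13350 genes, to 1.83 and 1.81 from 9.20 and 9.22 (difference -7.39, adjusted p = 1.01e-08). The other 8 subtilases measured differed by -1.53 to 1.43.

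Among the 12 largest falls and 12 largest rises of the 13350 genes, most loci carry no symbol in the annotation used. Over all probe sets, which include those paired with no gene, the differences ran from -8.66 to 9.51. After AT2G25450, the next falls were at AT4G16260, from 11.26 and 11.13 to 3.76 and 3.63, and at SBT4.12. Others were AT5G40590, AT4G26870, AT2G21045, AT5G38980 and AT4G38080, with differences of -7.19, -7.13, -7.12, -7.05 and -6.94. In each of these loci both GR-bdl groups read over 8 and mp under 4. On the rising side, AT4G17470 went from 2.46 and 2.50 with DEX and 2.56 and 2.52 without to 11.02 and 11.24 in mp (difference 8.65, adjusted p = 1.00e-08). AT1G72570, AT5G44440, AT3G11580, AT1G17830 and AT4G31020 rose by 6.13, 6.10, 5.92, 5.80 and 5.54. For all 6 the uninduced GR-bdl levels lay within 1 of the DEX-treated mean.

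A small share of genes had mp beside uninduced GR-bdl, as IAA29 did. Of the 901 genes higher by at least 1, uninduced GR-bdl lay within 25% of the difference from the DEX-treated mean in 702 (77.9%) and from the mp mean in 23 (2.55%). Of the 925 lower genes these counts were 768 (83.0%) and 4 (0.432%). The 3 groups share the DEX-treated arrays in both contrasts, so the values are given side by side. AT5G41400 read 9.73 and 9.65 in mp, 5.22 and 4.69 with DEX and 8.52 and 8.56 without (difference 4.74, adjusted p = 2.04e-07). AT1G66940 read 9.14 and 8.87, 6.26 and 5.83 and 9.18 and 9.15 in the same order (difference 2.96, adjusted p = 2.61e-06). AT1G68500 read 8.80 and 8.67, 5.54 and 5.99 and 8.15 and 7.99 (difference 2.97, adjusted p = 2.31e-06). P1R3 read 5.94 and 5.77, 3.22 and 3.12 and 5.37 and 5.32 (difference 2.69, adjusted p = 5.93e-07). In AT5G41400, AT1G68500 and P1R3 both mp arrays lay above the uninduced arrays as well. These 4 were picked after their values were seen.

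Of 4 reference genes, 1 was called lower and 0 higher (median -0.20). MON1, the locus AT2G28390, read 9.11 and 8.80 in mp and 8.79 and 8.76 with DEX and was not called (adjusted p = 0.321). AT4G34270, placed among the reference genes by its locus, read 8.36 and 8.44 and 8.38 and 8.58, overlapping (adjusted p = 0.644). TUB6, a tubulin, read 10.01 and 9.87 and 10.32 and 10.20 and was not called (difference -0.32, adjusted p = 0.0525), but it passed as lower in 5 of the refits, among them repeated quantile normalization (adjusted p = 0.0227). PEX4, a ubiquitin-conjugating enzyme of peroxisomes, was lower by a small margin, at 9.01 and 9.11 against 9.52 and 9.64 (difference -0.52, adjusted p = 0.00575).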

How the data were processed

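Affymetrix ATH1 arrays of 6 seedling cultures were used. The authors deposited intensities on the linear scale, and gcRMA is named in the submitters' processing notes (no version is named there). Values were converted to log2, and 64 AFFX control probe sets were left out of the tests. Array medians lay between 26.1 and 27.1, and the precision is limited by 2 arrays per group. Of 22746 probe sets, 13513 are paired with 1 gene in the platform annotation, 503 with several and 8730 with none. Symbols came from RefSeq for 13484 of them, and the brightest probe set stood for any gene that had several. Limma 3.58.1 in R 4.3.3 fitted 1 mean per group over all 6 arrays, with Benjamini-Hochberg adjustment over all 22746 probe sets and a threshold of 0.05. The method was tested on simulated data.

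The members and gene lists were chosen with earlier results of these data known. This includes members and whole lists added to the first lists. Counts of lists therefore describe the members named and do not test the families. Many loci without a symbol were placed in a list by locus number from general knowledge, so that placement was not checked here. Lists are described by counts and medians, with no set test. Genes named are the 12 largest called differences in each direction, up to 4 called members per direction and 2 uncalled members of each list, the reference genes, and others stated as chosen later. Alternatives were repeated quantile normalization, centring on array medians or hybridization controls, a mean of at least 4, 16 added before the log, the 4 arrays alone, eBayes with trend or robust, a replicate block, stricter thresholds and leaving out each array.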

Additional observations from a re-analysis of the deposited data

How the results depend on the processing

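Of the 175 genes named, 156 kept their direction and side of the threshold under every refit that held them, and no named gene reversed. There were 13 different refits, since leaving out either uninduced array gives the fit of the 4 arrays alone, and 29 genes were not in the refit on means of at least 4. The 9 called genes that lost a call in some setting are IAA18, LBD29, AT1G54200, JKD, PSAN, ZIP9, CR4, CLE41 and ALPHA-VPE, and the cause was not tested. Centring on the hybridization controls turned the count of all probe sets from 5031 higher and 4083 lower to 2848 higher and 6736 lower, which follows from the controls being higher in mp; the share on the higher side is therefore not settled by these data. Requiring a difference of at least 1 left 1735 in each direction. Leaving out each array in turn gave between 4104 and 4780 higher and between 3432 and 3744 lower. A replicate block gave 5000 higher and 4045 lower. Same-numbered arrays did not deviate together (correlations of 0.0981, -0.0397 and -0.0303 between the groups), so the numbers were not taken as pairs. The block ended the call of PSAN among the genes named. With 16 added before the log there were 8267 calls, of which 7759 were among the 9114 and 508 were not. The genes near the low end of the scale, 6090 with means under 4 in both lines, carry little information on differences. Without the second DEX-treated GR-bdl array or either mp array, calls fell to between 7565 and 7739, and the lone array of a group was then assumed to vary like the others.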

Other observations

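Families that the report does not describe had members on both sides, some with large differences. Of all genes, 20.3% were called higher, 16.4% lower and 36.7% in either direction. The first 3 families below were called at near the last share. Their median differences were 0.02, 0.06 and 0.03 in the order given, so only single members are described. Of 29 serine carboxypeptidase-like proteins, a family that includes acyltransferases of specialised metabolism, 6 were called higher in mp and 5 lower, and 8 were lower with centring on the hybridization controls. By their names scpl41 and scpl42 are neighbours in the family, yet scpl41 read 6.56 and 5.92 in mp against 2.32 and 2.31 with DEX (difference 3.93, adjusted p = 1.46e-06), while scpl42 read 4.85 and 5.27 against 7.81 and 7.71 (difference -2.71, adjusted p = 4.93e-06). Among 22 beta-glucosidases, 4 were called higher and 4 lower, with BGLU40 at 6.71 and 6.74 in mp and 4.37 and 4.38 with DEX (difference 2.35, adjusted p = 1.10e-05). BGLU33 lay near the low end and fell to 1.63 and 0.99 from 3.69 and 3.09 (difference -2.08, adjusted p = 2.42e-04). Of 19 CYP71B enzymes, members of the cytochrome P450 superfamily, 5 were called higher and 3 lower. CYP71B23 fell to 2.67 and 3.04 from 6.58 and 6.00 (difference -3.43, adjusted p = 3.61e-06) and CYP71B37 rose to 5.28 and 5.31 from 3.50 and 3.13 (difference 1.98, adjusted p = 1.16e-05). All 29 serine carboxypeptidase-like proteins and all 19 CYP71B enzymes were added with earlier results known.

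The ER body genes, which build the store of beta-glucosidase in the endoplasmic reticulum, had 4 of 7 called higher and 0 lower. With centring on the hybridization controls 2 were higher. The counts here are read against the 20.3% of all genes called higher and the 16.4% called lower. NAI1, the bHLH factor that drives them, read 4.98 and 4.76 in mp and 3.71 and 3.23 with DEX (difference 1.40, adjusted p = 2.60e-04). The jacalin-related lectin JAL33 read 11.42 and 11.51 and 10.69 and 10.56 (difference 0.84, adjusted p = 4.59e-04), and JAL34 read 11.63 and 11.43 and 11.70 and 11.58, overlapping. Of 15 family 9 endoglucanases 4 were called lower and 1 higher, and 7 were lower with centring on the hybridization controls. GH9C1 read 2.81 and 2.93 in mp and 5.42 and 5.71 with DEX (difference -2.70, adjusted p = 2.77e-06), and GH9C2 8.14 and 7.98 and 9.42 and 9.58 (difference -1.44, adjusted p = 7.71e-05). Of 15 tetraspanins 5 were called lower and 3 higher. All 15 tetraspanins and all 15 endoglucanases were added with earlier results known. TET8, a membrane protein known from extracellular vesicles, read 8.83 and 9.00 in mp and 10.69 and 10.79 with DEX (difference -1.83, adjusted p = 5.32e-06). Of 12 nitrate and peptide transporters 3 were called higher and 4 lower. NPF3.1, the locus AT1G68570 and a member of the nitrate and peptide transporter family, rose to 7.55 and 7.48 from 5.36 and 5.47 (difference 2.09, adjusted p = 1.76e-06). The calls were spread over the genome, with between 33.5% of the measured genes on chromosome 2 and 39.3% on chromosome 5 called.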
